A study of Mus musculus with 2 samples.

Results

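Genomic class models are transcript models that the authors' program, TALON, placed in a gene although the model matches none of the gene's splice chains. They were taken here as every model that the deposited tables class as Genomic and assign to an annotated gene, with spike-in sequences left out. There were 6274 of them in the replicate 1 library and 9214 in the replicate 2 library, which is 15488 of the 155714 models listed in both tables and 15488 of the 133241 models of annotated genes. The libraries are long-read RNA-seq of total RNA from gastrocnemius, a muscle of the calf. The mice were females of the F1 hybrid strain B6CASTF1/J, aged 14 days. The 2 libraries form the only group, so no condition is compared. Each was made from 2 µg, both labels carry 1 donor identifier, and the label of replicate 1 names 3 females while that of replicate 2 names a female without a count of animals. The tables give no molecular identifiers, so p-values and intervals cover counting error between these libraries only and say nothing of the spread between animals.

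A long-read library is usually made by priming on the poly(A) tail, and each read is meant to run from that tail toward the start of the RNA. An unspliced read inside a gene can be the last exon of a shortened molecule, an RNA that keeps an intron, a nuclear precursor, an RNA that ends at another poly(A) site, or complementary DNA primed inside a transcript where the RNA is rich in A. Poly(A) sites usually lie a short way after a hexamer of the form AATAAA or ATTAAA, which the cleavage machinery recognises. None of these origins can be told from another by the class alone.

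Sequences at some recurrent model ends are shown because the results turn on where the models end. The capitals in the next 4 lines mark every AATAAA or ATTAAA in the 30 bases up to the end of the model, 5′ to 3′ on the gene's strand. The sequences come from the transcripts of GENCODE M21 on mm10, and the sites were picked after their values were seen, among the exonic ends with the most reads. Apobec2 ends on the outermost annotated 3′ end of the gene. Mrpl30 and Slc25a5 end where a shorter annotated transcript stops, 197 and 254 bases before the outermost end, and Slc25a5 has neither hexamer there. Coq3 ends inside an annotated exon, 1405 bases before the nearest annotated 3′ end.
Apobec2: atagcaacatcAATAAAggaaataagtggt
Mrpl30: ttctcATTAAAgtgtatgttcatccagtca
Slc25a5: gagatcaagaaatacacataattatgtcct
Coq3: gaacaaaaggtcAATAAAaatatctaaatc
They lie at chr17:48419231-48419260 on the minus strand for Apobec2, and on the plus strand at chr1:37898309-37898338 for Mrpl30, chrX:36798524-36798553 for Slc25a5 and chr4:21910728-21910757 for Coq3. Other recurrent ends inside exons showed a hexamer (Chchd4), an A-rich stretch after the end (Pyroxd1) or neither (Sypl2, Myom2). For these the 30 bases up to the end are Chchd4, Sypl2 and Myom2 in turn, and the line of Pyroxd1 holds the 20 bases after its end with each A in capitals.
Chchd4: tcaATTAAAaagaaaccatttctatctgat
Sypl2: tacattctctagaaaaatgtacttgggcac
Myom2: gggcacatttctggaaaccctttgtggagc
Pyroxd1: gttggAAAgAAAtAAAgAAA
Their places are chr6:91464275-91464304 (minus strand) for Chchd4, chr3:108211828-108211857 (minus) for Sypl2, chr8:15133319-15133348 (plus) for Myom2 and chr6:142362122-142362141 (plus) for Pyroxd1.

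Genomic class models held 25785 of the 1248854 reads of annotated genes in replicate 1, or 2.06% (Wilson 95% interval 2.04 to 2.09). In replicate 2 they held 71817 of 1106450 reads, or 6.49% (6.45 to 6.54). The mean was 4.28% ± 3.13 (SD, n = 2), and the share was 3.14 times as high in replicate 2. For every 100 spliced reads of annotated genes there were 2.18 genomic reads in replicate 1 and 7.43 in replicate 2. Other classes differed as well. Incomplete splice matches, which hold part of an annotated splice chain and are abbreviated ISM, took 8.80% and 12.9% of gene reads, and chains with an unannotated splice site (NNC) took 14.1% and 5.30%. Averaged over all gene reads, the assigned model measured 2347 bases in replicate 1 against 1545 in replicate 2. The part of this length difference in the genomic share was not tested.

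The models were spread over many genes with few reads each. They touched 5253 of 13870 genes with reads in replicate 1 and 7115 of 14060 in replicate 2, and 3659 genes held at least 1 in both. A single read supported 3512 models (56.0%) in replicate 1 and 4686 (50.9%) in replicate 2. The 20 genes with the most genomic reads held 16.5% and 28.8% of them. Models with 1 exon carried 98.0% and 99.1% of the genomic reads. The models with more exons were 293 and 284 in number, led by Snord104, a small nucleolar RNA gene beside which a model of 2 exons and 177 bases had 30 and 134 reads and overlapped another annotated gene, Gm22711, on the same strand.

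The model coordinates describe the deposited models and not the extent of each read. Models of 1 base, which no read can have as its length, numbered 191 in replicate 1 and 519 in replicate 2 and held 7.07% and 15.8% of the genomic reads. Models shorter than 100 bases held 13.1% and 29.3%. The 5′ start of a model fell exactly on an annotated exon edge for 56.1% and 62.2% of the reads. The same end could carry models of very different length. At Nexn, whose product is the sarcomere protein nexilin, 61 reads of replicate 1 stood in a model of 585 bases and 329 reads of replicate 2 in a model of 1 base with the same 3′ end. At Ttn, the gene of titin, the giant spring of the sarcomere, the models at the gene's 3′ end measured 1052 bases (24 reads) and 5 bases (67 reads). Placement is therefore given by model. Without models shorter than 100 bases the genomic share of gene reads was 1.79% and 4.59%.

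Most genomic reads lay within annotated exons. A model was called exonic when at most 10 of its bases lay outside the exons of the gene's annotated transcripts. Exonic models held 19143 reads (74.2%, interval 73.7 to 74.8) in replicate 1 and 57880 reads (80.6%, 80.3 to 80.9) in replicate 2, a mean of 77.4% ± 4.49 (SD, n = 2). Nearly all of them fell inside a last exon, with 73.1% and 79.6% of all genomic reads there. Models that joined exon and intron held 3262 reads (12.7%) and 4247 reads (5.91%), and models that joined an exon to sequence beyond the gene held 1188 (4.61%) and 3134 (4.36%). Models wholly in introns held 1910 reads (7.41%) and 6011 reads (8.37%). The exonic share differed between the libraries by Fisher's exact test (two-sided p = 4.53e-99), as did the exon-intron share (p = 4.04e-242), while the share running beyond the gene gave p = 0.105 by the same test. Without models shorter than 100 bases the exonic share was 70.7% and 73.1%.

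**Figure D1:**
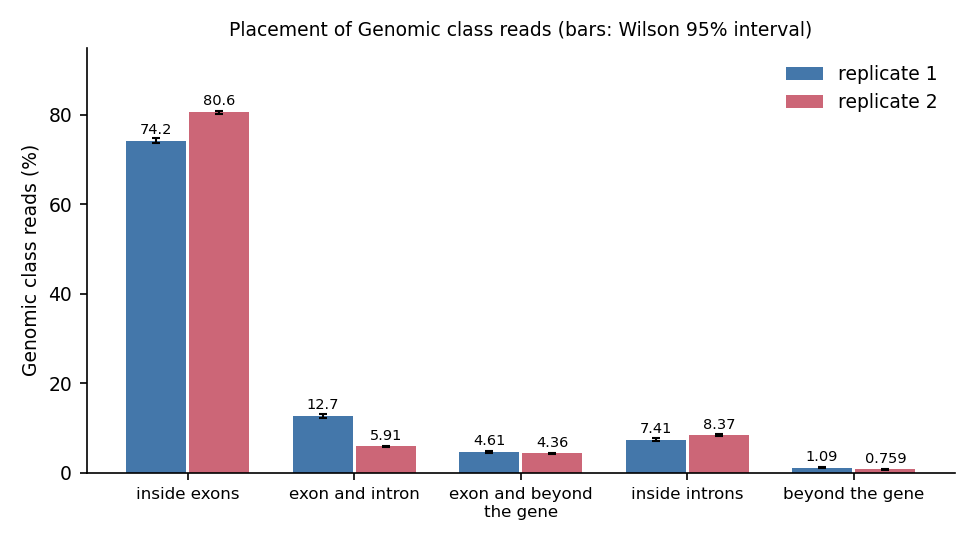
Share of Genomic class reads (y axis, percent) by where the model lies (x axis) in replicate 1 (blue) and replicate 2 (red), with error bars giving Wilson 95% intervals. Models inside exons held 74.2% and 80.6%, and models joining exon and intron held 12.7% in replicate 1 against 5.91% in replicate 2.

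Scaled to all gene reads of the library (as CPM), the ratio of replicate 2 to replicate 1 differed between placements. Exonic models stood at 15328 and 52311 CPM, a ratio of 3.41. Intronic models stood at 1529 and 5433 CPM, a ratio of 3.55. Exon-intron models stood at 2612 and 3838 CPM, a ratio of 1.47. Of these 3 placements, models that joined exon and intron had the lowest ratio. Exon-intron models were also the longest of the 3, with medians of 2041 and 1571 bases against 732 and 408 bases for exonic models and 545 and 251.5 bases for intronic ones.

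The 3′ ends of genomic reads gathered at annotated 3′ ends. Models ending within 50 bases of an annotated transcript end of their gene held 70.2% of the genomic reads in replicate 1 and 73.5% in replicate 2. The Wilson intervals were 69.6 to 70.8 and 73.2 to 73.9, and the libraries averaged 71.9% ± 2.35 (SD, n = 2). The match was to the base for 69.4% and 72.7% of reads, while 197 and 561 reads ended within 50 bases of an annotated end without being on it. Whether the reads' own ends lay on these bases was not tested. The gene's outermost 3′ end took 57.9% and 60.8% of the genomic reads, an inner end of another protein-coding transcript 9.04% and 8.86%, and an inner end of a transcript of another type 3.28% and 3.83%. Ends over 50 bases before any annotated end held 19.2% and 16.1%, and ends over 50 bases after the nearest held 10.6% and 10.3%. Measured the same way, ISM models ended within 50 bases of an annotated end for 86.6% and 91.9% of their reads. For 86.4% and 91.7% of ISM reads the match was to the base. Whether the ends of the ISM reads themselves lay there was not tested either.

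**Figure D2:**
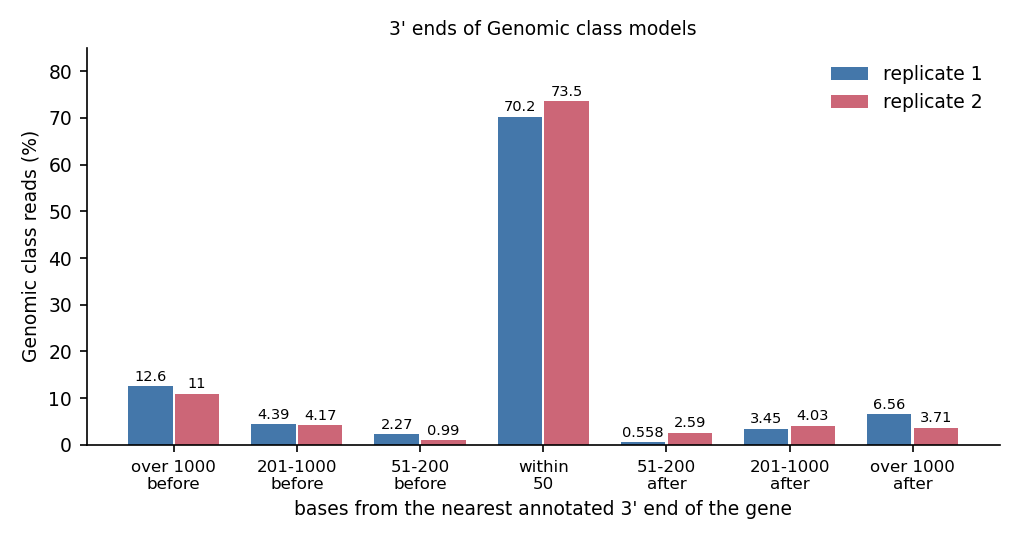
Share of Genomic class reads (y axis, percent) by the distance in bases from the model's 3′ end to the nearest annotated 3′ end of the gene (x axis, before or after that end), for replicate 1 (blue) and replicate 2 (red). The middle class holds 70.2% and 73.5%, and ends over 1000 bases before an annotated end hold 12.6% and 11.0%.

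Joining 3′ ends of a gene that lay at most 25 bases apart gave 12396 end sites over both libraries, of which 2990 (24.1%) had reads in both. Shared sites held 67.9% and 65.2% of the genomic reads. At least 5 reads in each library were found at 560 sites, 483 of them exonic, 39 joining an exon to other sequence and 38 outside exons. Of the 2639 intronic sites, 315 (11.9%) were in both libraries, and they held 55.1% and 45.0% of the intronic reads of these sites. Sites within exons but over 50 bases from any annotated end numbered 1895, with 279 in both libraries.

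The hexamers were more frequent at those inner ends than along the exons they lie in, as counts without a test. The 30 bases up to the end and the 20 bases after it could be read from the annotated transcripts for 1765 of the 1895 sites. AATAAA or ATTAAA, searched on the gene's strand, stood before 42.0% of them and before 52.7% of the 264 readable sites found in both libraries. Over all 6533033 positions of the last exons of the same 1462 genes, outside the annotated ends, the share was 3.01%. At sites on annotated 3′ ends it was 73.2%. At least 12 A among the 20 bases after the end were found at 13.2% of the inner sites and at 10.2% of those in both libraries, against 1.46% of all positions. At 831 of the 1765 sites neither feature was present. Sites of 1 gene can lie close together and share sequence, and a match of letters is a description only. Among the inner sites with at least 5 reads in each library, 14 of 35 had a hexamer.

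Among named genes, those with the most genomic reads (by mean CPM) were led by Apobec2, a muscle-rich member of the cytidine deaminase family (chromosome 17, 48419231 to 48432930). Genomic models held 697 of its 1417 reads in replicate 1 (49.2%, interval 46.6 to 51.8). In replicate 2 they held 5475 of 5966 (91.8%, interval 91.0 to 92.4). All but 1 read in each library stood in a model of a single base at the annotated 3′ end. Its spliced reads numbered 720 and 491, so its total was higher in replicate 2 while its spliced reads were lower. Slc25a5, a mitochondrial ADP/ATP carrier, had 171 genomic reads of 354 (48.3%) and 1126 of 1347 (83.6%), against 183 and 221 spliced reads. Mrpl30, a protein of the mitochondrial ribosome, had 153 of 250 (61.2%) and 811 of 979 (82.8%). Nisch, which encodes nischarin, had 39 of 135 (28.9%) and 485 of 522 (92.9%). In all 4 the gene's total was higher in replicate 2, and the larger part of that total was genomic there. Adjusted p-values of these 4 shares by Fisher's exact test ran from 1.24e-266 (Apobec2) to 5.82e-11 (Mrpl30). With models under 100 bases moved to the other reads, an alternative added after the values were seen, the difference in Apobec2 was -0.0538 percentage points (adjusted p = 0.928 by Fisher's exact test) and in Slc25a5 0.445 (adjusted p = 0.941).

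Genes of contraction and calcium handling were among the leading genes as well. Pvalb, the calcium buffer parvalbumin of fast fibres (chromosome 15, 78191114 to 78206400), had 0 genomic reads of 3889 in replicate 1, which allows a share of up to 0.0771%, and 2525 of 6481 in replicate 2 (39.0%). Of these, 2523 stood in a model of 4 bases at an annotated end, and spliced reads numbered 3653 and 3750. With that short model moved to the other reads the difference was 0.0309 percentage points and the call was lost (adjusted p = 1 by Fisher's exact test). Replicate 1 had 236 reads of Pvalb in 1-exon ISM models and replicate 2 had 206, so the combined shares were 6.07% and 42.1%. Mylpf, a regulatory light chain of fast myosin (chromosome 7, 127208890 to 127214298), had 233 of 26620 (0.875%) and 1201 of 39586 (3.03%), in models that joined exon and intron. Myh4, the fast IIb myosin heavy chain (chromosome 11, 67238029 to 67260446), had 104 of 28804 (0.361%) and 544 of 12523 (4.34%), also in exon-intron models ending on an annotated 3′ end. Tnnt3, fast troponin T, had 140 of 1642 (8.53%) and 386 of 2738 (14.1%) in models of this kind. Myom2, a protein of the sarcomeric M-band, had 90 of 1237 (7.28%) and 470 of 768 (61.2%), ending 193 bases before its annotated 3′ end. Srl, which encodes sarcalumenin of the sarcoplasmic reticulum, had 332 of 5233 (6.34%) and 451 of 1695 (26.6%). Of these, 318 and 366 stood in models that ran 3958 and 1481 bases past the annotated end, and 71 of replicate 2 in an exonic model that ended 1976 bases before it. Sypl2, a protein of the triad junction, had 260 of 1938 (13.4%) and 470 of 1441 (32.6%), most of them ending 350 and 356 bases before the annotated 3′ end. The difference passed the call defined below in Pvalb, Myom2, Srl and Sypl2 and stayed under its 10-point minimum in Mylpf, Myh4 and Tnnt3. Against full splice chains only, which held 19290 and 2305 reads of Myh4, the difference in Myh4 was 18.6 percentage points and passed. In Mylpf it was 2.23 points by that alternative and did not pass.

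**Figure D3:**
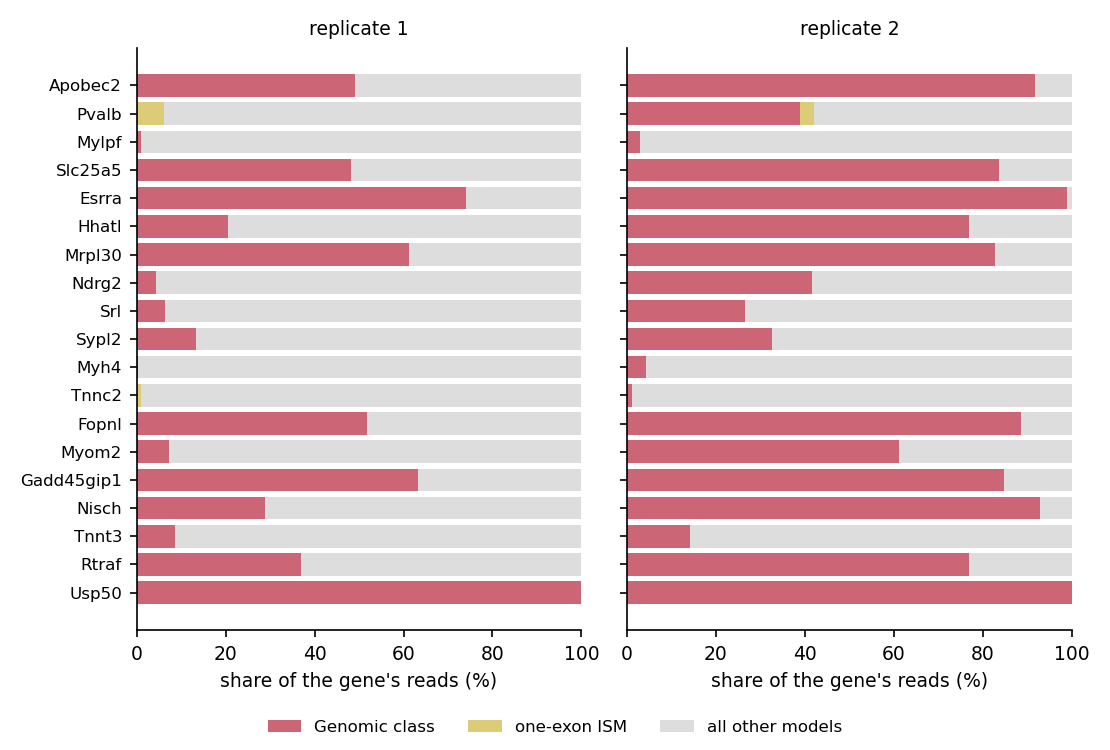
Composition of the reads of 19 of the 20 genes with the highest mean genomic CPM (rows) as a percent of the gene's reads (x axis) in replicate 1 and replicate 2, split into Genomic class, 1-exon ISM and all other models. Apobec2 went from 49.2% to 91.8% genomic, Usp50 was at 100% in both libraries, and Mylpf, Myh4 and Tnnc2 stayed under 5%.

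Some abundant muscle transcripts carried almost no genomic reads. Acta1, skeletal alpha-actin, had 1 of 89378 reads and 2 of 80088, and Ckm, muscle creatine kinase, had 3 of 76427 and 5 of 66434. Atp2a1, the calcium pump of fast fibres, had 31 of 144343 and 65 of 39622. Tnnc2, fast troponin C, had 0 of 26475 and 601 of 58164, and Mylpf, also abundant, is given above. The 601 reads of Tnnc2 stood in a model of 30 bases. In 1-exon ISM models Tnnc2 had 262 reads in replicate 1 and 0 in replicate 2. Its combined shares were 0.990% and 1.03% (adjusted p = 0.884 by Fisher's exact test). Mb, myoglobin, had 101 of 363 and 233 of 456. Reads of these defining markers of skeletal muscle, the labelled tissue, were present in both libraries. Immune and fat markers were near 0, with 1 and 0 reads of Ptprc, 4 and 3 of Cd68 and 5 and 3 of Adipoq. Col3a1, a fibroblast collagen, had 1 genomic read in each library among 4665 and 1881 reads. Pmp22, a myelin gene of Schwann cells, had 63 genomic reads of 331 and 263 of 648. Its reads were more numerous in replicate 2, and fewer cells of a type cannot be told apart from less RNA per cell. The part of cell composition in the genomic reads of this gene was not tested.

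In some genes most reads were genomic in both libraries. The 10 genes with the highest mean share, among the 957 genes with at least 100 reads in each library, included Usp50, Plec, Myadml2 and Ldb3. All 108 and 360 reads of Usp50 were genomic, and in 107 and 356 of them the model was the same 259 bases at the gene's annotated 3′ end, over Gm10774 on the same strand. Plec, the giant linker plectin, had 166 of 199 (83.4%) and 106 of 115 (92.2%), and Myadml2 had 167 of 179 (93.3%) and 89 of 105 (84.8%). Ldb3, a Z-disc protein, had 136 of 233 (58.4%) and 180 of 218 (82.6%). Of these 4, only Ldb3 passed the call between libraries (adjusted p = 3.63e-07 by Fisher's exact test), and Plec and Myadml2 gave adjusted p = 0.164 and 0.113. Against full splice chains only, the difference in Ldb3 was 3.67 percentage points and no longer passed (adjusted p = 0.193 by Fisher's exact test).

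Per gene, the share was tested with Fisher's exact test of genomic against other reads in genes with at least 20 reads in each library, with Benjamini-Hochberg adjustment over all 3891 of them. Genes were called where the adjusted p was under 0.05 and the shares lay at least 10 percentage points apart. The tested genes held 5665 of the 15488 models, and the other 9823 lay in genes with fewer reads. The share was higher in replicate 2 in 527 genes (13.5% of those tested) and higher in replicate 1 in 27 (0.694%). With models under 100 bases moved to the other reads these counts were 410 and 32. Genomic reads were present in 2675 of the tested genes. The median share was 0% in replicate 1 and 2.22% in replicate 2, and 75% of genes lay at or under 3.45% and 10.7%. Genomic reads made up 50% or more of the gene in 52 genes of replicate 1 and 238 of replicate 2, with 44 in both.

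In part of the genes the 1-exon reads stood in another class in each library. Known models held a further 25071 and 30173 1-exon reads, which the counts here leave out. Within a library, a gene's 1-exon reads in Genomic or ISM models stood mostly in 1 of these classes. Of the genes with at least 5 such reads, 91.7% of 1055 in replicate 1 and 89.7% of 1784 in replicate 2 had 90% or more of them in 1 of the classes. In 982 genes with at least 5 in each library, 485 were mostly Genomic in both, 180 mostly ISM in both and 141 mixed in at least 1. A further 105 were mostly ISM in replicate 1 and Genomic in replicate 2, and 71 the reverse. Cox6a2, the muscle form of a cytochrome c oxidase subunit, shows it. In replicate 1 it had 433 Genomic reads of 1858 and no 1-exon ISM read, and in replicate 2 no Genomic read of 3678, which allows up to 0.0816%, but 1144 reads in a 1-exon ISM model. Igf2, an imprinted growth factor, had 93 Genomic reads of 107 in replicate 1 and 152 ISM reads of 157 in replicate 2. Klf9, a transcription factor, had 167 ISM reads of 220 in replicate 1 and 57 Genomic reads of 66 in replicate 2.

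With Genomic and 1-exon ISM reads added up, an alternative chosen after the values were seen, the same rule called 693 genes higher in replicate 2 (17.8%) and 4 higher in replicate 1 (0.103%). Of the 527 genes called higher in replicate 2 by the Genomic class alone, 455 were called in the same direction and 72 were not called. Of the 27 called higher in replicate 1, only 2 were still called so, 15 were called higher in replicate 2 and 10 were not called. In 23 of the 27, replicate 2 had no Genomic read but had 1-exon ISM reads. The 5 largest of them were Igf2, Ywhag, Ubr7, Rxra and Mfsd5. Their Genomic shares in replicate 1 were 86.9%, 60.9%, 55.9%, 48.8% and 41.9% against 0% in replicate 2, and their combined shares differed by 9.90, 36.4, 12.1, 19.2 and 36.8 percentage points, with replicate 2 above replicate 1. Of these differences, those of Ywhag and Mfsd5 were called (adjusted p = 7.83e-05 and 0.000169 by Fisher's exact test). By the same exact test Ubr7 and Rxra gave adjusted p = 0.737 and 0.349, and Igf2 (adjusted p = 0.0165) lay under the 10-point minimum. With models under 100 bases moved, the Genomic difference was -0.935 points in Igf2 and -1.15 in Ywhag, and both lost their call (adjusted p = 1 for each by Fisher's exact test). The 5 largest in the other direction were Csnk2a2, Prx, Jph2, Nes and Klf9. They had 0 Genomic reads of 26, 20, 98, 38 and 220 in replicate 1, and 34 of 37, 20 of 22, 82 of 92, 22 of 25 and 57 of 66 in replicate 2. Counted with ISM reads, Csnk2a2, Prx and Jph2 still passed (adjusted p = 0.000287, 0.0019 and 1.31e-16 by Fisher's exact test), while Nes and Klf9 gave adjusted p = 0.635 and 0.252. Across the 2675 genes with genomic reads the share in replicate 1 and replicate 2 had a Spearman correlation of 0.35 (Pearson 0.67), and across the 3384 genes with reads of either class the combined shares had 0.63 (Pearson 0.77). These describe genes of the same libraries, which are not independent replicates.

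**Figure D4:**
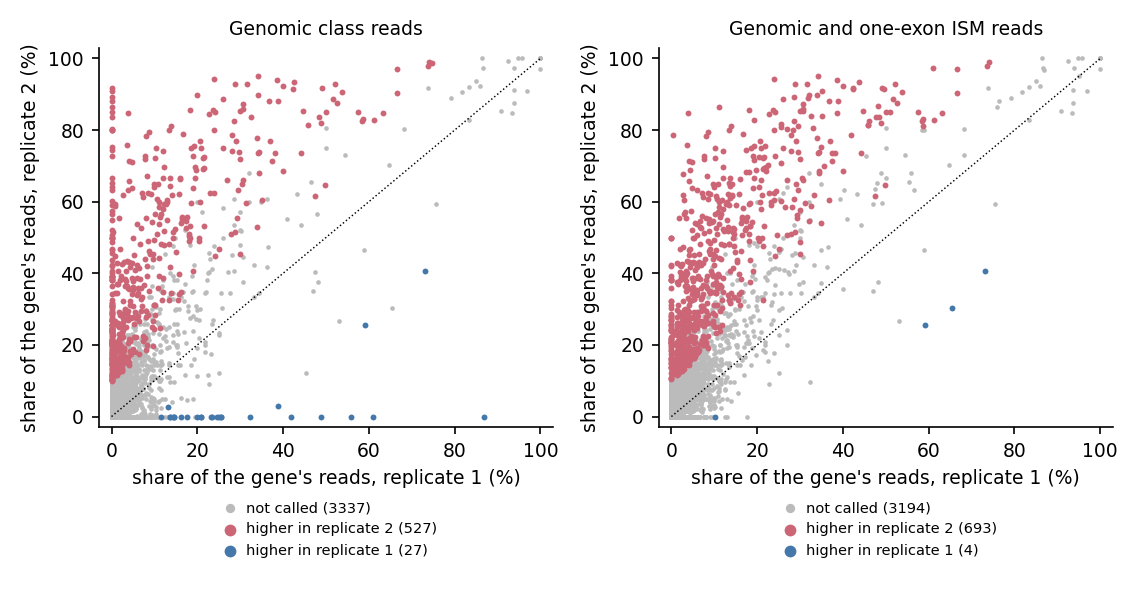
Share of each gene's reads in replicate 1 (x axis, percent) and replicate 2 (y axis, percent) for the 3891 tested genes, as Genomic class alone (left) and Genomic with 1-exon ISM (right). Genes called higher in replicate 2 are red (527 left, 693 right) and those called higher in replicate 1 are blue (27 left, 4 right), and many blue points on the left lie at 0% in replicate 2.

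Among the tested genes, genomic reads were weakly correlated with spliced reads in replicate 1 and hardly correlated with them in replicate 2. Across the 3891 tested genes, log2(genomic reads + 1) and log2(spliced reads + 1) had a Spearman correlation of 0.14 in replicate 1 and -0.01 in replicate 2 (Pearson 0.19 and 0.09), both counted in the same library. The tested genes were chosen by their total reads, which include the genomic reads. A gene with few spliced reads could therefore enter only through its other reads, the genomic ones among them. This choice can lower the correlation, so the values cannot say whether genomic reads follow spliced RNA over all genes. In replicate 2, genes with a longer last exon had the higher median share. There the median share was 0% in the 113 genes whose longest annotated last exon had at most 250 bases and in the 469 genes above that and up to 500 bases. It was 1.04% in the next 890 genes, up to 1000 bases, then 3.44% in 1036 genes up to 2000 bases and 5% in 1383 genes above 2000 bases. Genes called higher in replicate 2 were 2.65%, 3.20%, 10.6%, 14.3% and 19.3% of these classes in the same order. In replicate 1 the medians were 0% in the first 4 classes and 1.61% in the longest. With 1-exon ISM reads included, the medians ran from 1.10% in the shortest class to 9.43% in the longest in replicate 2 and from 0.375% to 3.23% in replicate 1, with a dip to 0.218% in its second class. Genes with a single annotated exon had 0 calls higher in replicate 2 among 150, with pooled genomic shares of 0.489% and 0.744%. In such a gene a 1-exon read can match the annotated transcript and so fall outside the Genomic class. That count therefore cannot be set beside those of the last-exon classes. The classes of last-exon length were not tested against each other. Gene span and exon number gave the same order in replicate 2. Its median shares were 0%, 2.06%, 3.45% and 5.88% from spans of at most 5000 bases to spans above 50000 bases. Among genes of more than 1 exon they rose from 0.739% in genes of 2 exons to 5.26% in genes of at least 21. The part of each of these features in the share was not tested.

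**Figure D5:**
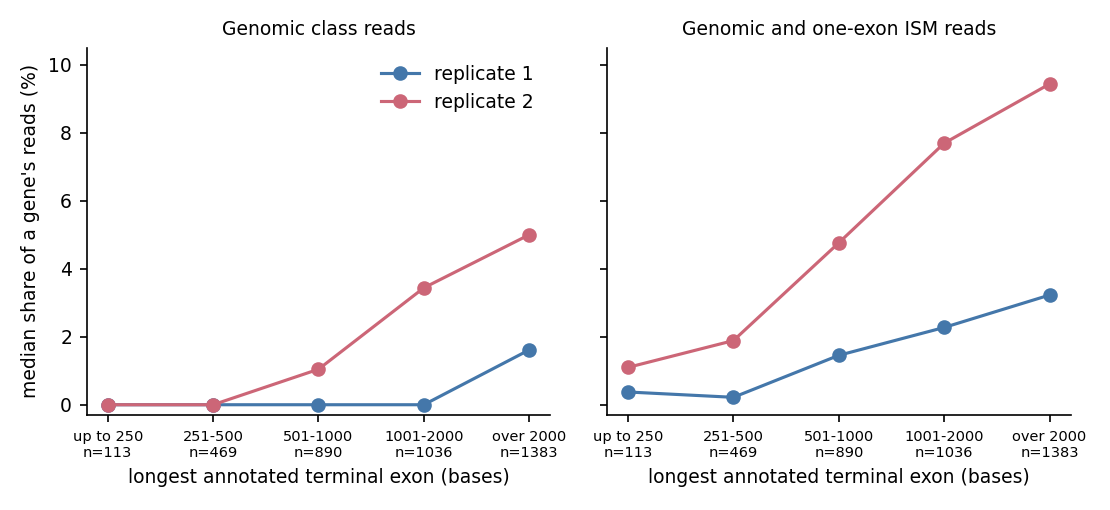
Median share of a gene's reads (y axis, percent) by the length of its longest annotated last exon (x axis, bases, with the number of tested genes), in replicate 1 (blue) and replicate 2 (red), as Genomic class alone (left) and with 1-exon ISM reads (right). In replicate 2 the Genomic medians go from 0% in the shortest class to 5% in the longest.

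Gene groups differed in how many members were called, and no group was tested as a set. Giant sarcomere and scaffold genes had 6 of 16 tested members called higher in replicate 2, among them Ldb3, Myom2, Nexn, Synpo2l and Ttn, with median shares of 8.10% and 32.8%. Genes of excitation-contraction coupling, the link from the nerve-driven action potential to calcium release, had 8 of 16 called, with medians of 5.84% and 18.1%. Among these were Asph, Fkbp1a, Jph1, Jph2, Jsrp1, Srl and Sypl2. Jsrp1, a protein of the junctional face, had 38 genomic reads of 426 (8.92%) and 265 of 585 (45.3%), of which 264 stood in a model of 6 bases at the annotated end. Of collagen and matrix genes 4 of 16 were called (Col1a1, Col5a3, Col6a1 and Sparc), with Col1a1 at 72 genomic reads of 4801 and 220 of 1522, and group medians of 0.998% and 6.54%. With models under 100 bases moved to the other reads, the differences of Nexn, Jsrp1 and Sparc were -15.7, -8.75 and -9.65 percentage points, with replicate 1 above replicate 2 (adjusted p = 4.25e-25, 2.03e-12 and 1.97e-29 by Fisher's exact test). With 1-exon ISM reads the counts of these groups became 11, 11 and 11 of 16, beside the 17.8% of all genes. By the Genomic class alone, 1 of 15 fast contractile genes (Pvalb), 1 of 11 slow contractile genes (Atp2a2), 1 of 21 genes of glycolysis and glycogen and 1 of 30 ribosomal protein genes (Rps4x) were called, beside the 13.5% of all tested genes. With 1-exon ISM reads these counts were 2 of 15, 1 of 11, 5 of 21 and 4 of 30. Of 34 nuclear genes of oxidative phosphorylation, Sdha was called higher in replicate 2 and Cox6a2 higher in replicate 1, and with 1-exon ISM reads 1 of 34 was called higher in replicate 2. Splicing factors known for introns that are kept or carry a stop had 1 of 13 called, Ddx5, an RNA helicase with 6 of 302 genomic reads in replicate 1 and 98 of 210 in replicate 2, of which 93 stood in a 1-base model. With short models moved, the difference in Ddx5 was 0.394 percentage points (adjusted p = 1 by Fisher's exact test), and with 1-exon ISM reads 2 of the 13 were called. The medians over all tested genes, to set these beside, were 0% and 2.22%.

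Nuclear and imprinted long RNAs had few members with enough reads. Of 5 tested, H19, Meg3 and Gm20388 were called higher in replicate 2, beside 13.5% of all tested genes. With 1-exon ISM reads the count was 2 of 5, beside 17.8% of all tested genes. Gm20388, whose biotype in the annotation is protein-coding, had 50 Genomic reads of 67 and 321 of 325, and its other reads were all 1-exon ISM. It had 0 spliced reads in either library. With 1-exon ISM reads, and against full splice chains, its share was therefore 100% in both libraries by arithmetic. Those 2 alternatives cannot test its call. H19, a maternally expressed RNA of growing muscle, had 90 genomic reads of 2232 (4.03%) and 230 of 1611 (14.3%), mostly in a model of 106 bases that ends on the annotated 3′ end. Meg3 had 7 of 38 and 52 of 87. Rian, below the minimum, had 8 of 8 and 74 of 74. By biotype, protein-coding genes held 93.8% and 94.6% of all genomic reads. Among protein-coding, lincRNA and antisense genes, those annotated as antisense had the highest share within their own reads, 558 of 1695 (32.9%) and 1484 of 2861 (51.9%), and lincRNA genes had 14.3% and 26.9%, against 1.97% and 6.32% in protein-coding genes. The 17 snoRNA genes stood at 81.1% of 53 reads and 80.9% of 299, but 2 genes held most of their 43 and 242 genomic reads. Models of 2 exons had 30 and 134 reads at Snord104 and 11 and 105 at Snora57. These models had 0 bases in the exons of those genes and overlapped Gm22711 and Mir5136 on the same strand.

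Intronic reads were led by a few sites that often lay on another gene. The site with the most was in Gm20388, a long transcript unit of chromosome 8 (119910841 to 124345722). Models of 2495 and 1679 bases ending there at 123903114 had 29 and 268 reads and overlapped exons of Nup133 on the opposite strand. The model of replicate 1 also overlapped Gm29773 on the same strand, a gene with 83 and 89 reads of its own. The intronic model of AC154200.1 (chromosome 17, 17345177 to 17345456), with 82 and 149 reads, overlapped the processed pseudogene Oaz1-ps on the same strand, and that of Lyrm4 in replicate 2, with 68 reads, overlapped Tmed10-ps. A pseudogene copied from an abundant RNA shares its sequence with the parent gene, so the origin of these reads is uncertain. The model in Gm45692 (15 and 144 reads) overlapped Rnf170, a protein-coding gene on the same strand, and that in Nckap5 (37 and 125 reads) overlapped no other gene. Over all intronic reads, 22.1% and 13.7% overlapped an exon of another gene on the same strand and 21.1% and 24.3% on the opposite strand, counting 1 shared base as overlap. The sources used here do not say whether the authors' assignment used the strand of a read.

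Models that joined an exon to sequence beyond the gene in part overlapped a gene on the opposite strand. In Esrra, a nuclear receptor of energy metabolism (chromosome 19, 6910977 to 6921813), genomic reads were 105 of 142 (73.9%) in replicate 1 and 1029 of 1039 (99.0%) in replicate 2. Of the latter, 1028 stood in a model of 216 bases that ran 143 bases past the annotated end and overlapped Trmt112 on the opposite strand, a gene with 31 and 52 reads of its own. In replicate 1 all 105 stood in the 73 bases of exon. Hhatl had 121 of 589 (20.5%) and 978 of 1273 (76.8%), and in replicate 1 the model lay in 37 bases of exon while in replicate 2 it ran 728 bases past the gene, over Klhl40 on the opposite strand, which had 358 and 179 reads. Of reads in such models, 454 of 1188 (38.2%) in replicate 1 overlapped an exon on the opposite strand, and 2597 of 3134 (82.9%) in replicate 2. Esrra and Hhatl held 1028 and 978 of the 2597, and without both genes the share in replicate 2 was 591 of 1128 (52.4%). A part of the models past the GENCODE end stopped within 50 bases of the end of the gene in RefSeq on GRCm38, with 122 of 894 reads (13.6%) of replicate 1 and 41 of 2746 (1.49%) of replicate 2 among models whose gene symbol matched. The models of Esrra and Hhatl held 1028 and 978 of the 2746 reads and ended 143 and 728 bases past the RefSeq end. The low share of replicate 2 thus rests largely on these 2 models.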

How the data were processed

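Both libraries' deposited tables give raw read counts per transcript model, and the authors' annotation files give each model's exons, per the file headers. The labels name mm10 and the notes in the files GENCODE M21 and TALON. The sources used here do not give the aligner, the TALON version or the platform. The libraries held 1316937 and 1204188 reads in all, and a count of 0 in a library allows up to 3 reads.

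Models were placed against the union of exons of all annotated transcripts of the gene, with a tolerance of 10 bases, as exonic, exon-intron, exon and beyond the gene, intronic or beyond the gene. Shares carry Wilson 95% intervals. Fisher's exact test per gene with Benjamini-Hochberg adjustment used SciPy 1.17.1 under Python 3.11.15, with pandas 2.3.3, NumPy 2.4.6 and matplotlib 3.10.9, and was tested on simulated data. Gene bounds were taken from the annotated transcripts, since 15902 of 55632 gene lines (28.6%) in the deposited annotation did not span theirs. ISM models served as the comparison for 3′ ends, because Known models carry the annotated ends. Most ISM models also ended on an annotated end to the base, so they are no independent reference for the ends of reads. Models were matched between libraries by the position of their 3′ ends, since identifiers are given per library. The planned sequence step assumed a genome. The transcript sequences of the annotation were used instead, so ends in introns and beyond genes have no sequence here.

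Named genes are the 20 with the highest mean genomic CPM, the 10 with the highest mean share among genes with at least 100 reads in each library, the 10 with the most intronic reads, the 5 largest called differences in each direction, the 15 recurrent sites with the most reads and up to 4 per list. A choice of these is described, and some genes that the rule names are not reported here. Markers, called list members, overlapping neighbours and genes outside the rule (Coq3, Chchd4, Pyroxd1, Lyrm4, Snord104) were chosen after their values were seen. The members and lists were chosen with earlier results of these data known. Alternatives changed the minimum reads, tolerance, window, joining distance, denominator and weighting.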

Additional observations from a re-analysis of the deposited data

Results flagged for a closer look

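Genomic class models also occurred on loci that the authors' tables assign to no annotated gene, which no comparison above used. They held 319 reads in 146 models of replicate 1 and 448 reads in 223 models of replicate 2, above the limit of 3 reads that a count of 0 allows. Of these, 272 and 371 reads lay on loci classed as antisense and 47 and 77 on loci classed as intergenic. Spike-in sequences held 3 and 2 reads of the class.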

How the results depend on the processing

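Of 74 recomputed summary values, 52 stayed within the spread between libraries or within 1.5 times the count. The spread is the SD of 2 libraries and can be wide. For the genomic share it was 3.13 on a mean of 4.28%, so 6.63% with 1-exon ISM reads counted as within it. A place among the 52 is therefore weak evidence of stability. The 52 include 8 values with replicate 1 left out and 8 with replicate 2 left out. For all of these but the A-rich share, a place within the spread was fixed by arithmetic, since the main value is the mean of 2 libraries. Calls higher in replicate 2 (527) became 296 at a minimum of 50 reads, where fewer genes were tested, and 25 for reads outside exons only, which count fewer reads. Calls higher in replicate 1 (27) became 12 at 50 reads, 52 with no minimum difference, 15 against full splice chains, 7 for reads outside exons and 4 with 1-exon ISM reads. The exonic share was 69.5% with each model counted once and 71.9% without models under 100 bases. The intronic share (7.89%) was 6.41% at a tolerance of 0, 3.53% against exons of transcripts with a Known-class read, 18.5% by model and 9.77% without short models. The share of exon with sequence beyond the gene (4.49%) was 5.01% and 3.80% at tolerances of 0 and 50, 6.08% against transcripts with a Known-class read, 2.56% by model and 5.73% without short models. The share at annotated 3′ ends was 75.1% within 200 bases, 58.4% by model and 66.5% without short models. The median gene share, averaged over both libraries, was 1.11% and became 3.94% with 1-exon ISM reads. The cause of these shifts was not tested.

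Of 366 recomputed differences over 63 gene results, 21 turned sign, 15 of them with a call before or after. The 366 include 63 at a minimum of 10 reads and 51 at a minimum of 50. There a gene's difference could not turn sign, because only the set of tested genes changed. With 1-exon ISM reads the differences were 7.80 points in Cox6a2, 9.90 in Igf2, 36.8 in Mfsd5, 19.2 in Rxra, 12.1 in Ubr7 and 36.4 in Ywhag, and of these only Mfsd5 and Ywhag were called. With models under 100 bases moved to the other reads they were -15.7 in Nexn, -9.65 in Sparc, -8.75 in Jsrp1, -0.0860 in Ndrg2 and -0.0538 in Apobec2, and of these only Nexn was called. For reads outside exons only the differences were -51.7 in Fopnl, -0.400 in Mrpl30, -0.0538 in Apobec2 and -0.0516 in Sypl2. A further 39 lost and 6 gained a call.

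With 1 library left out, the genomic share was 2.06% to 6.49%, the exonic share 74.2% to 80.6%, the intronic share 7.41% to 8.37%, the share at annotated ends 70.2% to 73.5% and the A-rich share of inner sites 12.1% to 14.0%. Counts of called genes and shared sites need both libraries. No paired analysis was possible because there is 1 group. Depth limits single genes: 9823 of 15488 models lie in genes too shallow to test.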
